A study of Homo sapiens with 4 samples.

Results

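Intermediate filament genes were followed in G401 cells, a kidney rhabdoid tumour line that lacks the SWI/SNF subunit SMARCB1, after knockout of BRD9, a bromodomain subunit of a non-canonical SWI/SNF complex. The set held 10 of the 57820 gene rows: the neurofilament subunits NEFH, NEFM and NEFL, their partner INA, then NES, VIM, SYNM, KRT8, KRT18 and KRT19. These 10 genes were chosen with their BRD9 KO and LacZ control values already known, so their levels and differences are a description: no p-value is given for them, and their calls are counted only beside those of all genes. The series compared 2 libraries of the genotype BRD9 KO with 2 libraries of the LacZ control, in which the guide RNA targets a bacterial gene that human cells do not have. All 4 came from G401 cells grown in DMEM with fetal bovine serum. By the methods of the study, lines that express Cas9 were infected with guide RNAs and selected with puromycin, so both groups carry Cas9 and a guide. The study reports that no clones of this line that lack BRD9 could be obtained. The makeup of the cells in these libraries and their day of harvest are not given in the sources that were used. The replicates are called biological in those methods, but the labels do not say that they were separate cultures. The spread between them may therefore be technical, and every p-value below measures only that spread.

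Intermediate filaments are rope-like cytoskeletal polymers whose subunits share a central coiled-coil rod. Cells use different subunits according to type: keratin pairs in epithelia, vimentin in mesenchymal cells, nestin in dividing progenitors and neurofilaments in neurons. Rhabdoid tumour cells are known for a cytoplasmic inclusion beside the nucleus that is made of whorled intermediate filaments, in which vimentin and keratins are found together. In these bulk libraries, fewer cells that express a gene and less RNA per cell cannot be told apart.

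The libraries held 19559200 and 16393900 counts in BRD9 KO cells, against 15053195 and 16673430 in LacZ cells, with 22985 to 23790 genes above 0 in each. Chi-square per degree of freedom between the 2 libraries of a group, over genes with at least 20 counts, was 1.59 for BRD9 KO and 1.62 for LacZ control, so replicates differed by more than counting error, which alone gives a value near 1. BRD9, the targeted gene, had 29.4 and 26.8 CPM (counts scaled to library depth by TMM, the trimmed mean of M-values) in BRD9 KO libraries and 48.2 and 53.8 CPM in LacZ libraries, a log2 fold change of -0.86 (SE 0.07). SMARCB1 had no count in any library, as the label of a rhabdoid tumour line implies. Markers of muscle, blood and liver were near absent: the summed TPM (a transcript share scaled by transcript length) of MYOD1, MYOG, PTPRC, HBB and ALB was 0 to 0.14 in BRD9 KO libraries and 0 to 0.28 in LacZ libraries.

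Start sites with 300 bases of promoter were matched for 5 of the 10 members in RefSeq (GRCh38.p14): NES, VIM, INA, KRT8 and SYNM. A single start site is shown for each gene. A gene can have others, and which ones G401 cells use was not tested. The 30 bases from -40 to -11 before each start are shown because a TATA box, where a promoter has one, lies there. They are written 5′ to 3′ on the strand of the gene, and capitals mark the longest run of A and T where it reaches 4 bases.
INA: agccccggcgccTTAAAAgccgggcgcacc
SYNM: ccccgtccgctaagtgcctgggctctcccg
KRT8: ggggcaggctttgtggggaggtgcctgatg
VIM: ggactctgcaagAAAAAccttcccggtgca
NES: ggcgggagtatgAATAgcctcgctcccact
The INA window lies at chr10:103277098-103277127 on the plus strand, SYNM at chr15:99105040-99105069 (plus), KRT8 at chr12:52926480-52926509 (minus), VIM at chr10:17228201-17228230 (plus) and NES at chr1:156677418-156677447 (minus). INA has the longest such run, 6 bases, and VIM has 5, whereas KRT8 and SYNM have no run of 4.

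These promoters differ widely in base composition. The GC content of the 300 bases is 79.0% in SYNM, 71.3% in INA and 60.3% in NES, and 50.7% in KRT8 and 48.0% in VIM, against a median of 58.7% over 35116 promoters. SYNM has 43 CpG pairs and INA 35, whereas KRT8, at the start site shown, has 2. The letters TATAAA, searched on both strands like every motif here, were in none of the 5, and were in 11.5% of all promoters. TGANTCA, the letters that AP-1 factors bind, were in none of the 5 and in 7.71% of all promoters, and CCAAT was in SYNM alone of the 5 and in 34.6% of all. GGGCGG, which Sp1-type factors bind, occurred 4 times each in INA, SYNM and NES, once in VIM and not in KRT8, and at least once in 45.0% of all promoters. CGGAAG, the letters read by ETS factors, occurred once in INA and once in KRT8, and in 19.5% of all promoters. Both matches are shown, since these are the only members of the 5 with one, with the match in capitals as it reads on the strand of the gene.
INA: cgctcgagtcaCTTCCGaagcagtcgattc
KRT8: taggagtggccaCTTCCGgcagaggtgact
In INA the match starts at -239 from the start site (window chr10:103276888-103276917, plus) and in KRT8 at -58 (window chr12:52926510-52926539, minus). Both lie on the opposite strand to the gene. A match of letters is not evidence that a factor is bound there.

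Of the 10 members, 7 had enough counts to enter the fit across 15288 genes, and 3 did not: NEFM, NEFL and KRT19. All 7 passed an edgeR adjusted p under 0.05, 5 with a higher and 2 with a lower level in BRD9 KO cells. In all genes tested, 38.6% passed, 20.5% as higher and 18.1% as lower. The same 7 did not overlap between the groups in CPM, with 5 above and 2 below in both BRD9 KO libraries, where 34.1% and 34.5% of all genes tested lay above and below in this way. Since the members were picked from this contrast, nothing is read from these counts. What the values show is a split within the family: the neuronal subunits NEFH and INA, the keratins KRT8 and KRT18 and the linking subunit SYNM were higher in BRD9 KO cells, and VIM and NES were lower.

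**Figure D1:**
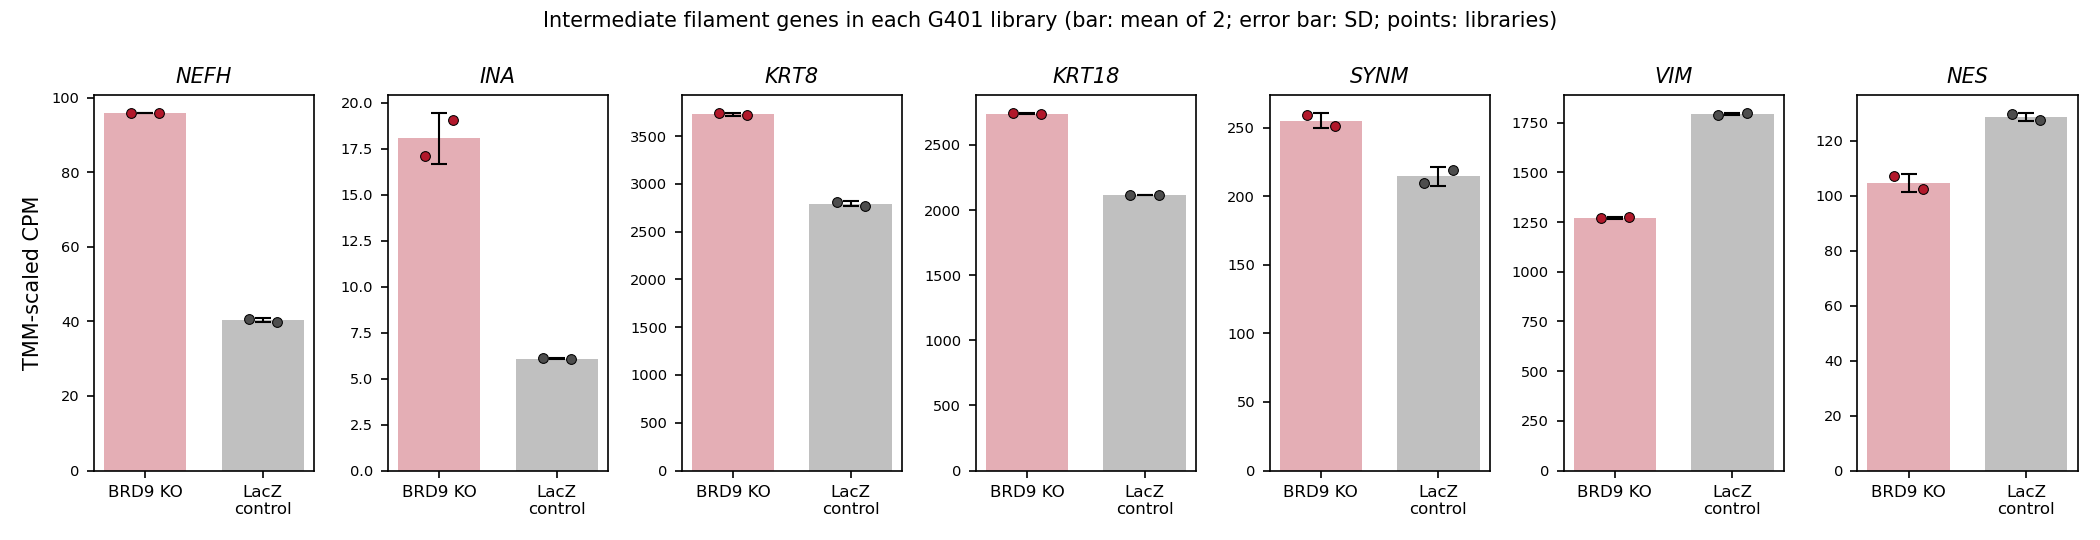
TMM-scaled CPM (y axis, linear from 0, a separate scale for each gene) of the 7 tested members in BRD9 KO and LacZ control libraries; bars are means of 2 libraries, error bars SD and points single libraries. NEFH had 95.9 and 95.9 CPM in BRD9 KO libraries against 40.7 and 39.9 in LacZ libraries, and in none of the 7 panels do the points of the 2 groups overlap.

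Among the neurofilament subunits, NEFH and INA were the only ones with counts. NEFH encodes the heavy subunit, whose long phosphorylated tail projects from the axonal filament and sets the spacing between filaments. NEFH (chr22:29876207-29887379, plus strand, hg19) had 1869 and 1566 counts in BRD9 KO libraries and 613 and 665 in LacZ libraries. Scaled for depth this was 95.9 and 95.9 CPM in BRD9 KO cells, against 40.7 and 39.9 CPM in LacZ cells. Both knockout libraries lay at more than double either control. The means were 95.9 ± 0.0137 and 40.3 ± 0.544 CPM (SD, n = 2 each), a log2 fold change of 1.25 (SE 0.04). An SD from 2 libraries can be small by accident, so these SDs are a poor measure of the spread. Of the 15288 genes tested, 98 had a higher log2 fold change.

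INA encodes alpha-internexin, which forms filaments early in neuronal differentiation and later co-assembles with the 3 neurofilament subunits. INA (chr10:105036895-105050103, plus strand, hg19) had 333 and 311 counts in BRD9 KO libraries and 92 and 101 in LacZ libraries, or 17.1 and 19.0 CPM against 6.10 and 6.06 CPM. Its means were 18.1 ± 1.39 CPM in BRD9 KO cells and 6.08 ± 0.0309 CPM in LacZ cells (SD, n = 2 each). The log2 fold change of INA, 1.57 (SE 0.11), was the highest of the members, and 45 genes had a higher one. Of its 3251 exon bases, 452 lie over exons of NT5C2 on the opposite strand, and the library kit did not mark strand, so reads from those bases cannot be assigned to either gene by strand. NT5C2, a nucleotidase gene, had 227.5 and 227.3 CPM in BRD9 KO cells against 194.7 and 188.0 CPM in LacZ cells, a log2 fold change of 0.25 (SE 0.03, edgeR adjusted p = 1.39e-07). The part of NT5C2 in the INA values was not tested.

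NEFM and NEFL encode the medium and light subunits, of which NEFL forms the core of the neurofilament in neurons. NEFM (chr8:24771271-24776611, plus) and NEFL (chr8:24808468-24814235, minus; both hg19) had 0 counts in all 4 libraries. A count of 0 allows up to 3 counts, which for NEFM is up to 0.108 and 0.129 TPM in BRD9 KO libraries and 0.139 and 0.125 TPM in LacZ libraries. For NEFL the limits were 0.0637 and 0.0760 TPM in BRD9 KO libraries and 0.0820 and 0.0739 TPM in LacZ libraries. These limits cover counting error only. Both genes were thus listed far below NEFH, whose TPM was 42.9 ± 0.0212 in BRD9 KO cells and 17.9 ± 0.283 in LacZ cells (SD, n = 2 each).

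With the light and medium subunits at 0, the RNA of the neurofilament subunits listed here was that of NEFH and INA. Their summed TPM was 51.9 and 52.9 in BRD9 KO libraries and 21.3 and 20.9 in LacZ libraries. NEFH made up 82.7% and 81.1% of the sum in BRD9 KO libraries, and 85.0% and 84.9% in LacZ libraries. The ratio of NEFH to INA, by TPM, was 4.78 and 4.29 in BRD9 KO libraries and 5.67 and 5.60 in LacZ libraries. NEFH was thus the more abundant of the pair in every library, by a smaller margin in BRD9 KO cells. The peripherin gene PRPH, listed with the other filament genes, is not in this sum. It had 2.84 and 1.58 TPM in BRD9 KO libraries and 2.53 and 3.27 TPM in LacZ libraries. PRPH did not pass (log2 fold change -0.39, SE 0.28, edgeR adjusted p = 0.302).

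The genes with profiles closest to that of NEFH over the 4 libraries, among 10779 genes whose mean reached 5 CPM, were CACNA1B, SPHK1 and ANGPTL2. The measure was the root mean square distance between log2 CPM values centred on each gene's mean, which was 0.05, 0.05 and 0.06. CACNA1B, the pore-forming subunit of the N-type neuronal calcium channel, had 13.4 and 13.0 CPM in BRD9 KO libraries and 5.37 and 5.10 CPM in LacZ libraries. SPHK1, a sphingosine kinase, had 7.90 and 7.23 CPM in BRD9 KO libraries and 3.32 and 3.12 CPM in LacZ libraries. ANGPTL2, a secreted angiopoietin-like protein, had 50.3 and 51.4 CPM in BRD9 KO libraries and 23.8 and 22.9 CPM in LacZ libraries. With 4 libraries in 2 groups, such likeness says little more than that these genes had a log2 fold change near that of NEFH.

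VIM and NES were the members with less RNA in BRD9 KO cells. VIM encodes vimentin, the filament protein of mesenchymal cells and of most cultured cells. VIM (chr10:17270240-17279592, plus strand, hg19) had 1269 and 1276 CPM in BRD9 KO libraries against 1788 and 1797 CPM in LacZ libraries. The group means were 1272 ± 4.84 CPM in BRD9 KO cells and 1793 ± 6.34 CPM in LacZ cells (SD, n = 2 each). The log2 fold change was -0.49 (SE 0.01), which left 71.0% of the LacZ level. The antisense gene VIM-AS1, which shares 656 exon bases with VIM, had 48.9 and 47.3 counts in BRD9 KO libraries and 52.0 and 34.0 in LacZ libraries, or 0.114% to 0.227% of the VIM counts.

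NES encodes nestin, a large filament protein of neural and muscle progenitors that needs vimentin or a similar partner to form filaments. NES (chr1:156638555-156647199, minus strand, hg19) had 107 and 102 CPM in BRD9 KO libraries and 130 and 128 CPM in LacZ libraries. Both knockout libraries lay below both controls, at 104.6 ± 3.40 CPM against 128.6 ± 1.43 CPM (SD, n = 2 each). With a log2 fold change of -0.30 (SE 0.03), BRD9 KO cells held 81.3% of the LacZ level, so the difference was smaller than that of VIM.

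SYNM encodes synemin, a large filament protein that joins vimentin or desmin filaments and links them to adhesion sites. SYNM (chr15:99638420-99675798, plus strand, hg19) had 259 and 251 CPM in BRD9 KO libraries and 210 and 220 CPM in LacZ libraries. Its means were 255 ± 5.56 CPM in BRD9 KO cells and 215 ± 6.99 CPM in LacZ cells (SD, n = 2 each), a log2 fold change of 0.25 (SE 0.03). In size this was the smallest difference of the 7, close to that of NES, and it ran opposite to that of VIM. Of the 7773 exon bases of SYNM, 2027 lie over the antisense gene SYNM-AS2, which had 4.10 and 6.61 CPM in BRD9 KO libraries and 12.2 and 9.24 CPM in LacZ libraries. SYNM-AS2 fell by 1.01 on the log2 scale (SE 0.23, edgeR adjusted p = 0.0107). RSEM, the tool that estimated the counts, had to share unstranded reads of these bases between both genes, and the part of this in the SYNM values was not tested.

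KRT8 and KRT18 encode the type II and type I keratins of simple epithelia, which polymerise only as a pair and are the first keratins of the embryo. They were the most abundant members in both groups. KRT8 (chr12:53290971-53343738, minus strand, hg19) had 3738 and 3717 CPM in BRD9 KO libraries and 2813 and 2771 CPM in LacZ libraries. KRT18 (chr12:53342655-53346690, plus strand, hg19) had 2744 and 2735 CPM in BRD9 KO libraries and 2117 and 2114 CPM in LacZ libraries. The means of KRT8 were 3727 ± 14.9 and 2792 ± 29.7 CPM, and those of KRT18 2740 ± 6.02 and 2115 ± 1.69 CPM, in BRD9 KO and LacZ cells (SD, n = 2 each). The log2 fold changes were 0.42 (SE 0.01) for KRT8 and 0.37 (SE 0.01) for KRT18, or 1.33 and 1.30 times the LacZ level.

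The keratin pair kept nearly the same proportion in both groups. By TPM, the ratio of KRT8 to KRT18 was 1.13 and 1.13 in BRD9 KO libraries and 1.10 and 1.08 in LacZ libraries. The neighbouring genes share 525 exon bases on opposite strands, so unstranded reads of that stretch cannot be assigned by strand. Both also have many processed pseudogenes. The 50 rows of KRT8 pseudogenes, 35 of them with a count, summed to 1144 and 891 counts in BRD9 KO libraries and 625 and 708 in LacZ libraries, which was 1.57% and 1.47% of KRT8 in BRD9 KO cells and 1.47% and 1.53% in LacZ cells. The 68 rows of KRT18 pseudogenes summed to 0.316% and 0.279% of KRT18 in BRD9 KO libraries and 0.362% and 0.301% in LacZ libraries. These sums were small beside the KRT8 and KRT18 differences between the groups.

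KRT19 encodes a small type I keratin, common in ductal epithelia, that can also pair with KRT8. KRT19 (chr17:39679869-39684560, minus strand, hg19) was close to undetected, with 0 and 1 counts in BRD9 KO libraries and 4 and 5 in LacZ libraries. The ratio of BRD9 KO to LacZ cells, from 1 and 9 counts pooled within each group and corrected for depth, was 0.0981. Its level was too low for the fit, and the ratio of single counts is given without a call.

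**Figure D2:**
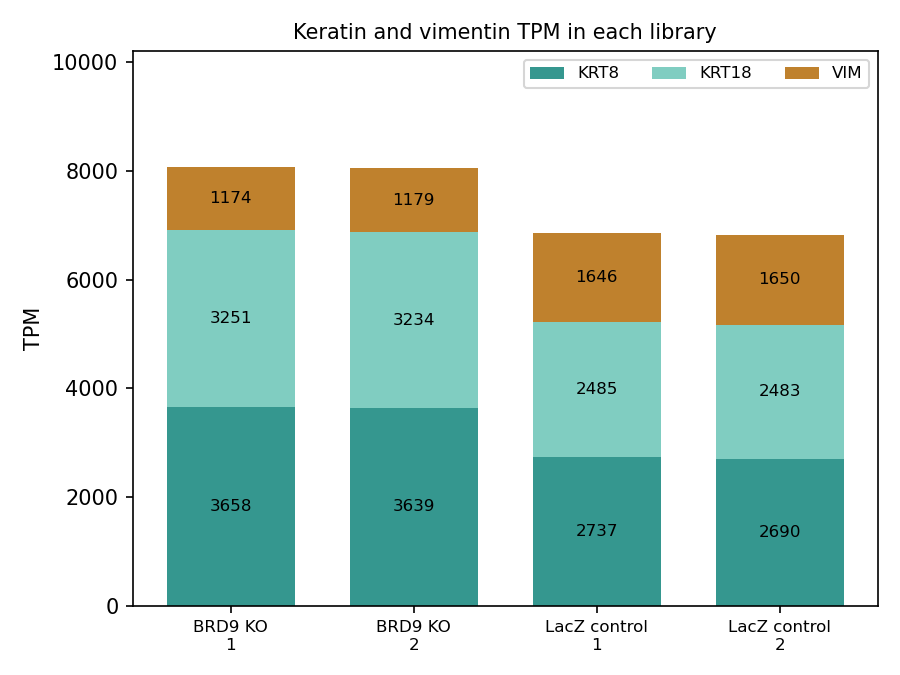
TPM (y axis, from 0) of KRT8, KRT18 and VIM, stacked for each of the 4 libraries, with the value written in each segment. The VIM segment is 1174 and 1179 TPM in BRD9 KO libraries against 1646 and 1650 in LacZ libraries, while both keratin segments are taller in BRD9 KO libraries.

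Keratin RNA was higher and vimentin RNA lower in BRD9 KO cells, so the balance between them shifted. KRT8 and KRT18 together had 6908 and 6873 TPM in BRD9 KO libraries and 5221 and 5173 TPM in LacZ libraries. The ratio of VIM to KRT8, by TPM, was 0.321 and 0.324 in BRD9 KO libraries, against 0.601 and 0.613 in LacZ libraries. Of the summed TPM of KRT8, KRT18 and VIM, vimentin took 14.5% and 14.6% in BRD9 KO libraries and 24.0% and 24.2% in LacZ libraries. The 10 members together made up 0.824% and 0.820% of all TPM in BRD9 KO cells and 0.698% and 0.694% in LacZ cells.

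By TPM, the order of the members in BRD9 KO cells was KRT8, KRT18, VIM, SYNM, NEFH, NES, INA and KRT19, with NEFM and NEFL at 0. The order in LacZ cells was the same except that NES, with 39.0 and 38.3 TPM, stood above NEFH, with 18.1 and 17.7 TPM. In BRD9 KO cells NEFH, with 42.9 and 42.9 TPM, stood above NES, with 32.4 and 30.9 TPM. From KRT8 down to INA no neighbours in either order overlapped between their libraries. INA, at 8.98 and 10.0 TPM in BRD9 KO libraries and 3.19 and 3.16 TPM in LacZ libraries, was the least abundant of the 7 tested members.

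**Figure D3:**
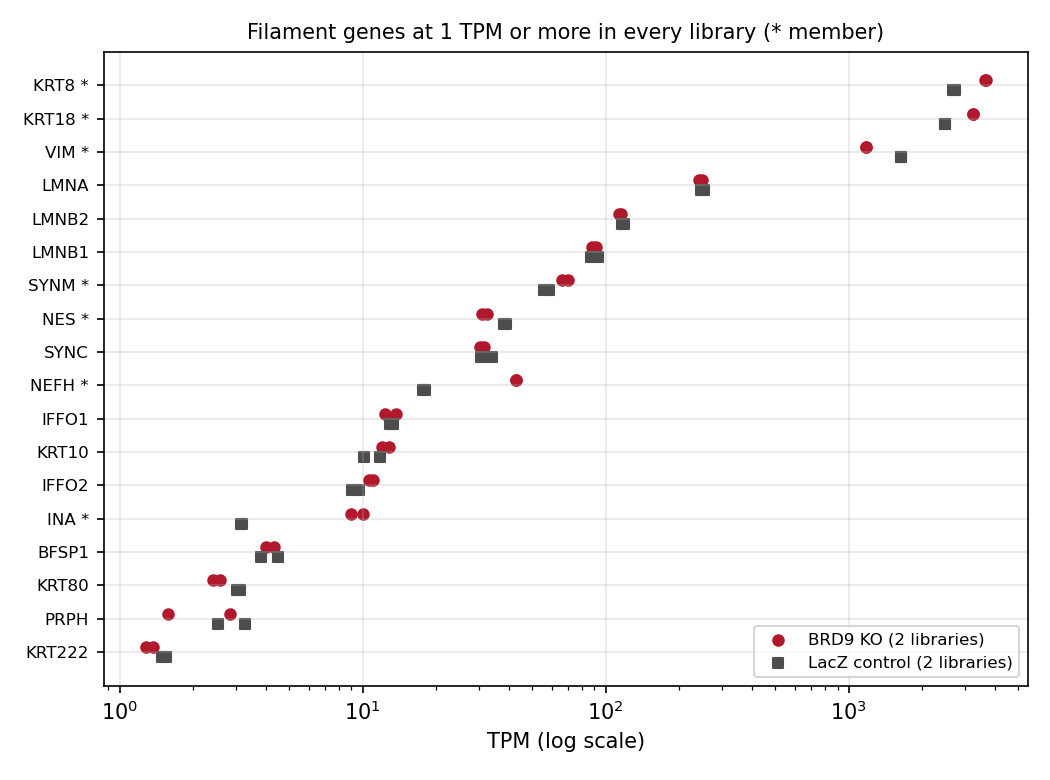
TPM (x axis, log scale) of the members, marked with an asterisk, and of other intermediate filament genes that reached 1 TPM in every library; red circles are the 2 BRD9 KO libraries and grey squares the 2 LacZ control libraries. The members shown run from KRT8, at 3658 and 3639 TPM in BRD9 KO libraries, down to INA, at 8.98 and 10.0 TPM in those libraries, and the lamins LMNA, LMNB1 and LMNB2 lie between VIM and SYNM.

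The other 63 genes of the intermediate filament family served as the surrounding group: the lamins of the nuclear envelope, the desmin-like genes, the lens filament genes and the remaining keratins. Of these, 11 had enough counts to be tested and 39 had no count in any library. None of the 11 passed the edgeR test, which 38.6% of all genes tested passed. The members had been taken out of this family with their values known, so nothing is read from that contrast. In CPM, 3 of the 11 lay above and 5 below in both BRD9 KO libraries, beside 34.1% and 34.5% of all genes tested. In that test 1 of the 11 (KRT80) had an unadjusted p under 0.05. DESeq2 and limma called none of the 11, with none at an unadjusted p under 0.05. Their log2 fold changes lay between -0.39 and 0.17 with a median of -0.03, beside -0.01 for all genes tested. LMNA, which encodes lamins A and C, had 334.8 and 334.8 CPM in BRD9 KO libraries and 336.5 and 347.3 CPM in LacZ libraries, a log2 difference of -0.03 (SE 0.02, edgeR adjusted p = 0.239). LMNB2, a B-type lamin, differed by -0.04 (SE 0.02, edgeR adjusted p = 0.144). The summed TPM of the 63 genes was 525.8 to 532.3 in BRD9 KO libraries and 538.6 to 538.7 in LacZ libraries. Among 52 other keratin genes, 39 were at 0 in every library and KRT10, a keratin of differentiating epidermis, was the highest at 12.8 TPM in its highest library, so that the keratin RNA of these cells was almost wholly that of KRT8 and KRT18.

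**Figure D4:**
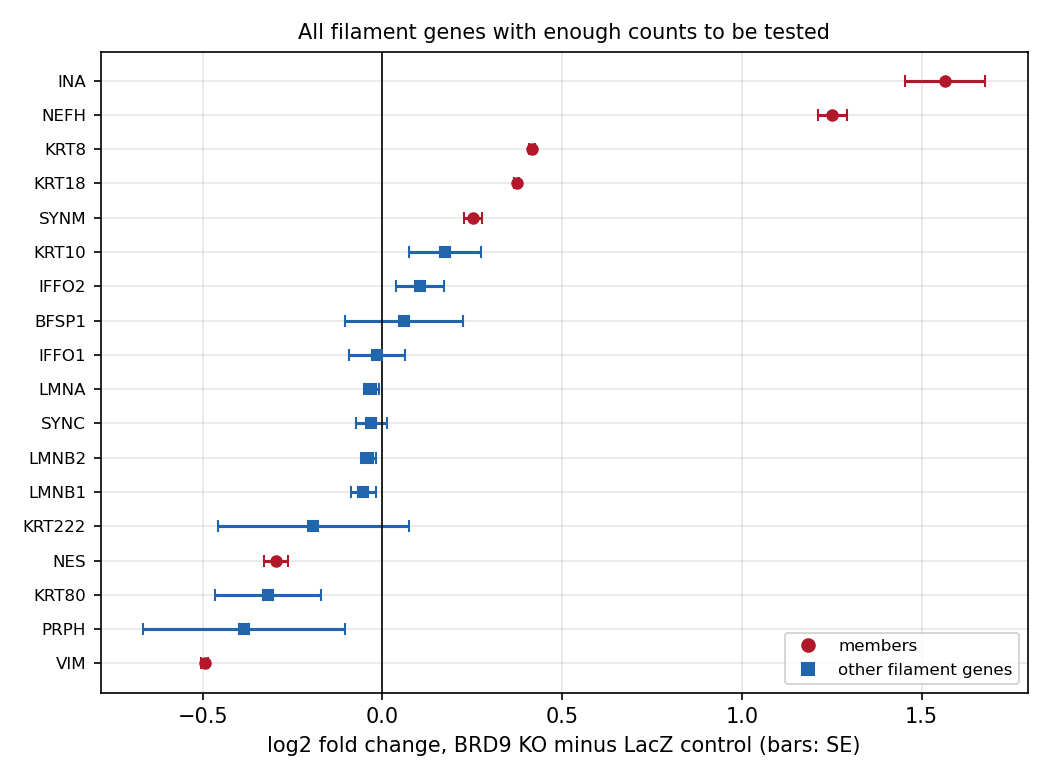
Log2 fold change, BRD9 KO minus LacZ control (x axis), of every intermediate filament gene with enough counts to be tested; points are edgeR estimates and bars 1 SE, with the 7 members in red and 11 other genes in blue. INA at 1.57 and NEFH at 1.25 lie far to the right, VIM at -0.49 lies at the left, and the blue points lie between -0.39 and 0.17. The members were chosen with these values known.

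Genes whose proteins link or modify intermediate filaments were read as a further list. Of 28 such genes 22 were tested, and 5 passed as higher and 5 as lower in BRD9 KO cells, with a median log2 fold change of 0.01. Among all genes tested, 20.5% passed as higher and 18.1% as lower, so the counts of this list lay near those shares and nothing is read from them. This list and those below were chosen with earlier results known, so their counts are a description. DST, which encodes dystonin, a plakin that ties filaments to adhesion sites and to other cytoskeletal fibres, rose most clearly, with 872 and 880 CPM in BRD9 KO libraries against 593 and 589 CPM in LacZ libraries (log2 fold change 0.57, SE 0.01, edgeR adjusted p = 1.56e-17). DST also differed in its effective transcript length as RSEM estimated it, 7132 and 7067 bases in BRD9 KO libraries against 6181 and 6085 bases in LacZ libraries, and its difference on the log2(TPM + 1) scale, which takes that length into account, was 0.36. CRYAB, a small heat shock protein that chaperones vimentin-like filaments, fell, with 416 and 406 CPM in BRD9 KO libraries and 583 and 584 CPM in LacZ libraries (log2 fold change -0.51, SE 0.02, edgeR adjusted p = 5.11e-15). CDK5R1, which encodes the p35 activator of CDK5, a kinase of neurofilament tails, had 5.34 and 4.29 CPM in BRD9 KO libraries and 2.52 and 2.34 CPM in LacZ libraries (log2 fold change 0.99, SE 0.21, edgeR adjusted p = 0.00079).

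RNA of other linkers of keratin filaments changed little or was at low levels. FAM83H, which organises keratin filaments, was higher in BRD9 KO cells by 0.13 (log2, edgeR adjusted p = 0.00273), and JUP, the desmosomal protein plakoglobin, fell by 0.11 (edgeR adjusted p = 0.0041). EPPK1, the keratin-binding plakin epiplakin, had 0.462 and 0.674 CPM in BRD9 KO libraries and 1.73 and 1.56 CPM in LacZ libraries (log2 fold change -1.54, edgeR adjusted p = 0.00421). DESeq2, limma on log2(TPM + 1) and a filter of 1 CPM in all 4 libraries gave no call for EPPK1. PNN, which encodes pinin, and KIF5B, a kinesin that carries filament cargo, had the highest TPM of those that did not pass, with log2 differences of -0.03 and -0.00. On log2(TPM + 1) with limma the difference of CDK5R1 was 0.40 and did not pass (adjusted p = 0.269), and its effective length was 4251 and 3969 bases in BRD9 KO libraries against 3163 and 3418 bases in LacZ libraries. Single libraries or the choice of tool decided the other calls: EPPK1 did not pass without the first BRD9 KO library (edgeR adjusted p = 0.0612) or the first LacZ library (0.0622), FAM83H did not pass with limma (adjusted p = 0.104) or without the first LacZ library (0.08 on the log2 scale, edgeR adjusted p = 0.0803), and JUP did not pass with DESeq2 (adjusted p = 0.0873), with limma (0.221), or without the first BRD9 KO library (-0.07, edgeR adjusted p = 0.134) or the first LacZ library (0.0661).

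Since NEFH and INA are used as neuronal markers, a list of 32 neuronal genes was read beside them. Of these 15 were tested, 4 passed as higher and 0 as lower, and their median log2 fold change was 0.08. The shares over all genes tested were 20.5% higher and 18.1% lower. STMN2, GAP43, SNAP25 and SCG3, genes of growing axons and of vesicle release, the neuronal RNA-binding genes ELAVL2 and ELAVL4 and the proneural factor NEUROD1 had no count in any library. The genes at 0 therefore include defining markers of mature neurons, whereas the list's summed TPM was 1596 to 1599 in BRD9 KO libraries and 1443 to 1464 in LacZ libraries, most of it from UCHL1. Other vesicle and axon genes of the list had counts and did not pass. VAMP2 had 39 and 38 CPM in BRD9 KO libraries and 39 and 40 CPM in LacZ libraries. MAP1B had 106 and 105 CPM against 107 and 103 CPM, and SYP 4.31 and 4.65 CPM against 5.44 and 5.40 CPM. TUBB3, neuronal beta-tubulin, rose by 0.34 on the log2 scale, with 316 and 314 CPM in BRD9 KO libraries and 253 and 246 CPM in LacZ libraries (SE 0.02, edgeR adjusted p = 1.67e-10). STMN3, a stathmin-like tubulin-binding protein, rose by 0.22 (edgeR adjusted p = 3.01e-05) and UCHL1, a neuronal ubiquitin hydrolase, by 0.08 (edgeR adjusted p = 0.000454). CHGB, a granin of secretory granules, had a log2 fold change of 0.67 (SE 0.25, edgeR adjusted p = 0.0407), which did not hold without the first or the second BRD9 KO library or the second LacZ library (edgeR adjusted p = 0.111, 0.107 and 0.282), nor with DESeq2 (adjusted p = 0.225) or limma on log2(TPM + 1) (adjusted p = 0.237). L1CAM and NSG1, which had the highest TPM of those that did not pass, differed by -0.06 and 0.08 (edgeR adjusted p = 0.0769 and 0.259). L1CAM passed as lower without the second LacZ library (-0.10, edgeR adjusted p = 0.0389) and with a filter of 1 CPM in all 4 libraries (-0.07, adjusted p = 0.0318).

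Epithelial genes other than the keratins did not follow KRT8 and KRT18. Of 22 such genes 8 were tested, 1 passed as higher and 3 as lower, with a median log2 fold change of -0.00. The shares over all genes tested were 20.5% higher and 18.1% lower. EPCAM, CDH1, ESRP1, ESRP2 and GRHL2, which define epithelia, had at most 10.1 counts in any library. TJP3, a tight junction scaffold, fell by 0.42 on the log2 scale (SE 0.06, edgeR adjusted p = 2.67e-05). PRSS8, a membrane serine protease, fell by 1.53 (SE 0.27, edgeR adjusted p = 0.000124) and the claudin CLDN4 by 0.71 (SE 0.14, edgeR adjusted p = 0.000544). SPINT2, a protease inhibitor, rose by 0.09 (edgeR adjusted p = 0.00562), and OCLN and MUC1 differed by 0.05 and -0.05 without passing. On log2(TPM + 1) with limma, PRSS8 (adjusted p = 0.0513), CLDN4 (0.063) and SPINT2 (0.15) did not pass. The list's summed TPM was 383.0 to 400.9 in BRD9 KO libraries and 383.3 to 383.9 in LacZ libraries.

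Some mesenchymal genes were lower in BRD9 KO cells, as VIM was, and some were higher. Of 23 mesenchymal genes 15 were tested, 2 passed as higher and 5 as lower, with a median log2 fold change of -0.10. The shares over all genes tested were 20.5% higher and 18.1% lower. COL1A1, a chain of type I collagen, fell by 1.02 on the log2 scale (SE 0.02, edgeR adjusted p = 5.88e-18), COL3A1 by 0.57 (SE 0.02, edgeR adjusted p = 2.01e-16) and SPARC, a secreted matrix protein, by 0.79 (SE 0.01, edgeR adjusted p = 2.37e-19). TAGLN, an actin-binding protein of smooth muscle, fell by 0.30 (SE 0.03, edgeR adjusted p = 2.18e-08). THY1, a surface glycoprotein, rose by 0.79 (SE 0.08, edgeR adjusted p = 1.05e-07) and FBN1, which encodes fibrillin, by 0.27 (SE 0.04, edgeR adjusted p = 6.55e-06), though FBN1 did not pass on log2(TPM + 1) with limma (0.19, adjusted p = 0.136). COL5A2 and PDGFRB did not pass, at -0.00 and 0.05. CDH2, SNAI2, TWIST1, ZEB2 and PRRX1 were among 7 genes of the list with no count in any library. Several defining mesenchymal genes were thus not detectable at this depth in cells rich in VIM. Factors of the same families, ZEB1, SNAI1 and TWIST2, had counts in every library and did not pass. ZEB1 had 14.86 and 13.98 TPM in BRD9 KO libraries and 15.12 and 15.34 TPM in LacZ libraries. SNAI1 had 6.44 and 5.54 TPM against 6.93 and 6.12 TPM, and TWIST2 6.64 and 8.02 TPM against 8.15 and 7.44 TPM. The summed TPM of the list was 2442 in both BRD9 KO libraries and 3120 to 3145 in LacZ libraries. The part of these lists in the members' values was not tested.

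Among the 30 genes named from these lists by p-value or highest TPM, 6 share exon bases with another gene in the annotation: CRYAB, TUBB3, NSG1, TJP3, TAGLN and THY1 (EPPK1 was not matched to it). For TUBB3 the partner lies on the same strand and for the others on the opposite one, and without strand their reads cannot be told apart in the shared bases.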

How the data were processed

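Total RNA of 4 G401 libraries was made into sequencing libraries with a NEBNext Ultra kit that, by its catalogue number in the methods, does not mark strand. The labels name a Direct-zol extraction and the methods Trizol. Per the submitters' processing notes, STAR, RSEM and the hg19 build were used, without versions. Deposited expected counts are estimated counts that share ambiguous reads among genes. The deposited TPM values are scaled by the authors to effective transcript length and to a fixed total per library. Deposited effective lengths and posterior standard deviations were also read, and other columns such as FPKM were not used.

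Expected counts were rounded to whole numbers and fitted with edgeR 4.0.16 in R 4.3.3 (filterByExpr, TMM scaling, quasi-likelihood F test, two-sided), which tested 15288 genes. P-values were adjusted by the Benjamini-Hochberg method over all of them and called under 0.05. The standard error is the log2 fold change divided by the square root of F. CPM values are TMM-scaled. Library totals of 15053195 to 19559200 counts limit the precision of genes with few counts. Alternatives were DESeq2 1.42.0, limma 3.58.1 on log2(TPM + 1), other scalings and filters, a replicate block, a threshold of 0.01, and leaving out each library. The scripts were tested on simulated data.

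The 10 members and all gene lists were chosen with earlier results of these data known. From each further list, up to 6 genes by smallest p among those that passed and the 2 of highest TPM among those that did not are named. A few more are named for their level alone, and some list genes are not reported by name here. Where a symbol had several rows, the row with the most counts was used. Gene positions are those of the GENCODE v44 annotation on GRCh37, matched by identifier, or by symbol for NEFL, and promoters come from RefSeq.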

Additional observations from a re-analysis of the deposited data

How the results depend on the processing

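As a description of genes chosen from this contrast, the log2 fold changes of the 7 tested members, and that of BRD9, had the same direction and call under each of 11 other settings. NEFH lay between 1.22 and 1.27, INA between 1.33 and 1.65, KRT8 between 0.41 and 0.43, KRT18 between 0.37 and 0.39, SYNM between 0.22 and 0.29, NES between -0.33 and -0.26, and VIM between -0.50 and -0.48. The number of genes called across the transcriptome was 3585 with DESeq2 (2146 higher, 1439 lower) and 2069 with limma on log2(TPM + 1) (1149 higher, 920 lower), against 5901. Of the linker and partner genes, DESeq2 called 5, limma 3 and a threshold of 0.01 called 6, against 10. Leaving out 1 library gave 5 to 7: 6 without either BRD9 KO library, 5 without the first and 7 without the second LacZ library. For the epithelial list limma called 1 instead of 4. With the posterior mean TPM, NEFH took 83.1% of neurofilament TPM in LacZ cells, and the KRT8 to KRT18 ratio in BRD9 KO cells was 1.127. With pseudogene counts added, that ratio was 1.139 in BRD9 KO cells and 1.105 in LacZ cells. The cause of these shifts was not tested.

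Among the genes named from the lists by p-value or highest TPM, 3 that never passed changed sign. KIF5B was at 0.0092 with DESeq2, 0.011 without a filter, and -0.028 to 0.028 when 1 library was left out. MUC1 was at 0.022 with limma, and -0.21 to 0.12 when 1 library was left out. COL5A2 was at 0.012 with DESeq2, 0.0025 with limma, 0.014 without a filter, and -0.0051 to 0.0081 when 1 library was left out.

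The labels give both groups the numbers 1 and 2, but same-numbered libraries did not deviate together (correlation -0.05 over 15288 genes). With the replicate number as a block, 6109 genes were called, 7 of the members among them, and none of the list counts changed: 0 other filament genes, 10 linkers, 4 neuronal, 4 epithelial and 7 mesenchymal genes. A fit that leaves out 1 library takes the spread from the group that still has 2, which assumes that the lone library varies as much. Genes with few counts, such as KRT19, NEFM and NEFL, are limited by depth.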
